A study of Rattus norvegicus with 8 samples.

Results

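The genes that take up carotenoids and handle vitamin A were examined in the liver of diabetic rats fed an extract of persimmon peel. They were Scarb1, Bco1, Bco2, Rdh16, Dhrs3, Lrat, Rbp4, Aldh1a1 and Cyp26a1, and every probe set that the platform annotation assigns to 1 of these symbols alone was taken. This gave 9 probe sets for 8 of the 9 genes, out of 31042 probe sets that are not manufacturer's controls. Scarb1 had 2 sets, 7 genes had 1 set each, and the expression of Bco2 is not analysed here. The animals were male rats of the Goto-Kakizaki strain, which becomes diabetic while staying lean. One group of 4 rats received the AIN-93G diet, a purified rodent feed, with the persimmon peel extract for 12 weeks, and the other group of 4 rats received AIN-93G alone for the same 12 weeks. All rats were 18 weeks old, and the liver of each was measured on its own 1-colour Affymetrix array. Neither the dose of the extract nor its carotenoid content is given in the sources used here.

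Carotenoids from the diet reach the liver in lipoproteins, and some of them are cleaved to retinal, the aldehyde form of vitamin A. Retinal is reduced to retinol, which hepatic stellate cells store as retinyl esters and hepatocytes release into the blood bound to a carrier protein. Oxidised further, retinal becomes retinoic acid, the ligand of the retinoic acid receptors, which switch on genes that include those removing retinoic acid. Persimmon is known as a source of beta-cryptoxanthin, a carotenoid that can be cleaved to vitamin A.

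Of the 9 probe sets, that of Rdh16 was lower on the persimmon peel diet and the other 8 did not pass the test. Differences are given as log2 fold changes, persimmon peel minus control diet, and the threshold for a call was 0.05 for the p of a limma fit over 15521 probe sets after Benjamini-Hochberg adjustment. All 9 sets had enough signal to be tested. Over all tested sets, 4.95% were called, with 4.53% lower and 0.425% higher, so that 91.4% of the calls were lower, against 68.8% after quantile normalization. A single call among 9 sets is therefore no result about the genes as a group. The unadjusted p was under 0.05 for 1 of the 9 sets, again Rdh16, against 19.6% of all tested sets. The median log2 fold change over the 8 genes, with the brighter set for Scarb1, was -0.04, beside 0.01 over the 9174 named genes tested.

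The arrays differed somewhat in scale, with median signals of 33.2 to 39.2 units, the highest in persimmon peel array 3. Correlations between arrays were 0.967 to 0.986 over the tested sets. Control ratios moved with the diet for beta-actin. The signal of its middle probe set relative to the 3' set, a log2 ratio that reflects transcript integrity and labelling, was -1.06 ± 0.11 on the persimmon peel diet and -0.76 ± 0.02 on the control diet (SD, n = 4 each) without overlap (two-sided p = 0.0286 by an exact permutation test, which cannot go lower here, or 0.0571 adjusted over 4 ratios). Its 5' set relative to the 3' set gave -1.97 ± 0.22 on the persimmon peel diet and -1.68 ± 0.12 on the control diet (SD, n = 4 each). There the diets also did not overlap, though persimmon peel array 1 and control array 1 were both at -1.82, and the exact permutation p was the same, 0.0286, or 0.0571 adjusted. The GAPDH ratios overlapped between the diets, with differences of -0.14 for 5' to 3' (exact permutation p = 0.0857, adjusted 0.114) and -0.0063 for middle to 3' (exact permutation p = 0.857, adjusted 0.857). The tissue label fitted the markers: the 11 hepatocyte markers with a probe set summed to 102468 to 109909 units on the persimmon peel diet and 111609 to 119284 units on the control diet, without overlap. Their brightest sets had negative log2 fold changes in 11 of 11 genes, with a median of -0.09, and 0 of these 11 sets passed in limma, with 2 at an unadjusted p under 0.05. Over all tested sets of these markers, 1 of the 11 genes had a set called lower, 9.09% against 5.89% of all named genes. At an unadjusted p under 0.05 in limma, 4 of the 11 had a lower set, against 1487 of all 9174 named genes tested. The called gene was Cps1, an enzyme of the urea cycle, named after its value was seen. Its dimmer set (1370151_at) gave 5071, 6363, 4887 and 5539 units on the persimmon peel diet, against 7966, 7828, 7723 and 8355 units on the control diet. The diets did not overlap there, and the log2 fold change was -0.55 (SE 0.08, adjusted p = 0.00224), against -0.07 for the brighter set (adjusted p = 0.576). The part of the beta-actin ratios or of the hepatocyte markers in the results below was not tested.

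Uptake of carotenoids was represented by Scarb1, the receptor for high-density lipoprotein that also takes carotenoids into cells. Its brighter set, 1386956_at, had signals of 354, 354, 429 and 387 units on the persimmon peel diet, against 386, 364, 366 and 432 units on the control diet. The highest array of each diet was close to that of the other, and the groups overlapped. The difference was -0.02 (SE 0.10, 95% interval -0.25 to 0.20, adjusted p = 0.926). The dimmer set, 1367855_at, had 240, 240, 291 and 243 units on the persimmon peel diet, against 289, 258, 301 and 292 units on the control diet. Here 3 of the 4 persimmon peel arrays lay below every control array and array 3 did not. The difference of this set was -0.17 (SE 0.11, 95% interval -0.40 to 0.06, adjusted p = 0.394), so neither set of Scarb1 passed.

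Cleavage was represented by Bco1, the oxygenase that splits beta-carotene in the middle to give retinal. Its set 1369430_at gave 514, 546, 268 and 353 units on the persimmon peel diet, against 232, 463, 394 and 284 units on the control diet. Persimmon peel arrays 1 and 2 lay above every control array, while arrays 3 and 4 lay within the control range. The highest array was 2.03 times the lowest within the persimmon peel diet and 2.00 times the lowest within the control diet. Bco1 was thus the most variable member, and its residual SD of 0.47 on the log2 scale was at or above that of 99.6% of the 1000 tested sets nearest to it in signal. The difference between the diets was 0.29 (SE 0.23, 95% interval -0.20 to 0.78, adjusted p = 0.523). The interval extends to a signal 1.71 times that of the control diet, so these arrays do not settle whether Bco1 differed.

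**Figure D1:**
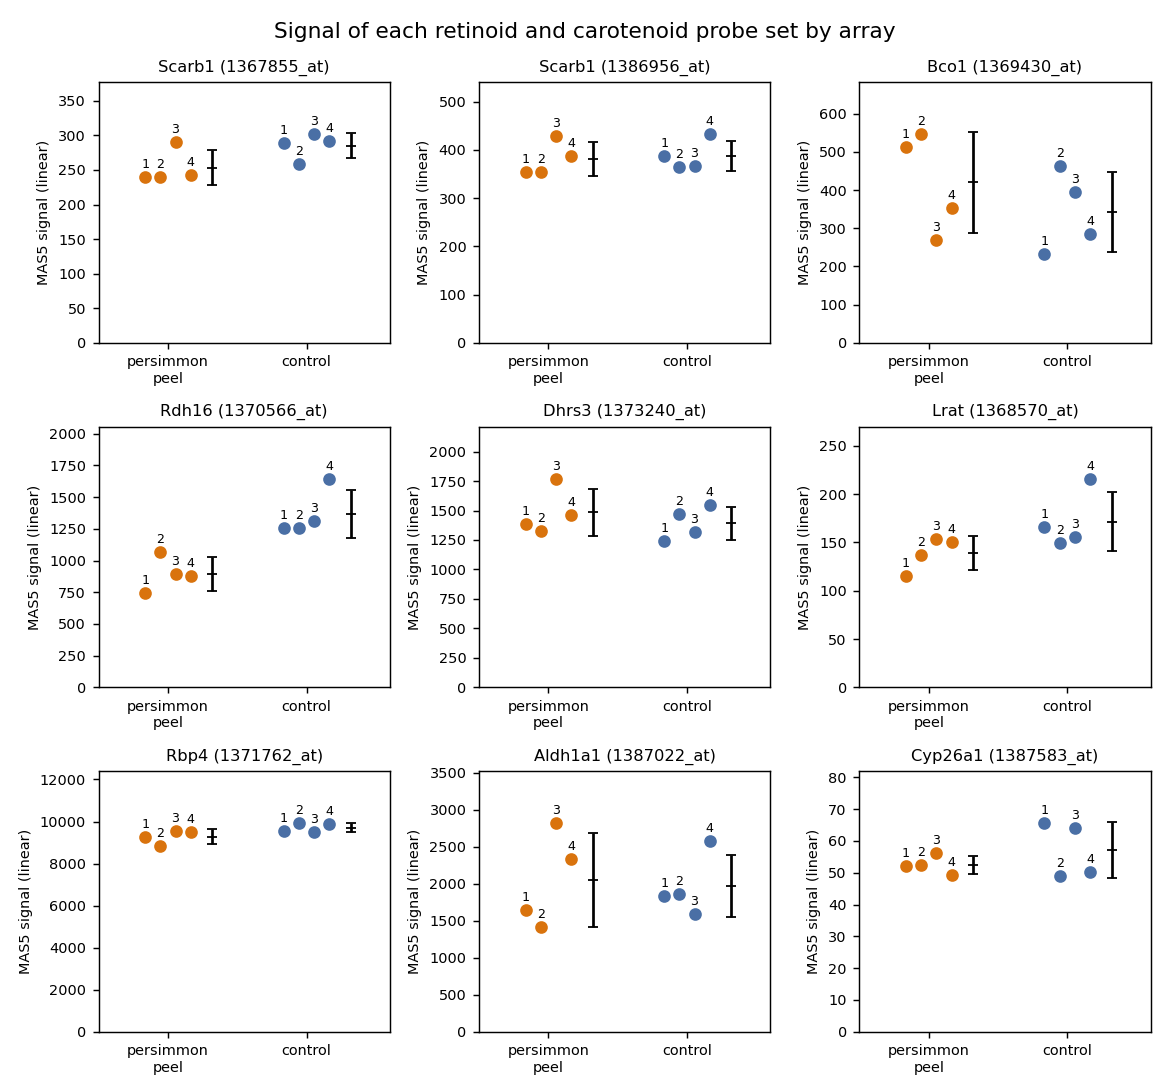
Signal of each of the 9 probe sets on a linear scale, 1 panel per set, with the persimmon peel arrays on the left and the control arrays on the right of each panel; points are arrays numbered by replicate and bars are the mean and SD of 4 arrays. In the Rdh16 panel all 4 persimmon peel arrays, at 743 to 1070 units, lie below all 4 control arrays, at 1252 to 1644 units, while the other 8 panels overlap.

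Between retinal and retinol act Rdh16, a dehydrogenase that oxidises retinol to retinal, and Dhrs3, which reduces retinal back to retinol. Rdh16 (1370566_at) had signals of 743, 1070, 892 and 880 units on the persimmon peel diet, against 1256, 1252, 1309 and 1644 units on the control diet. Every persimmon peel array lay below every control array. The mean was 896 ± 134 units on the persimmon peel diet and 1365 ± 187 units on the control diet (SD, n = 4 each). The log2 fold change was -0.61 (SE 0.12, 95% interval -0.86 to -0.36, adjusted p = 0.0089), which is a signal 34.5% lower with an interval of 22.1% to 44.9%. Rdh16 was the only member whose diets did not overlap, a separation found in 12.9% of all tested sets, 10.0% being lower and 2.87% higher with the extract. By p it ranked 197 among the 15521 tested sets, and 3.25% of the tested sets had a log2 fold change as low or lower. In bulk liver, fewer cells of a type and less RNA per cell cannot be told apart.

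The fall of Rdh16 kept its call with each array left out in turn, with log2 fold changes between -0.70 and -0.52. It did not pass without persimmon peel arrays 1 and 3 together, the 2 arrays with the lowest beta-actin middle to 3' ratios, where it was -0.48 (adjusted p = 0.106, with 2 persimmon peel arrays against 4). The kept persimmon peel arrays had middle to 3' ratios of -0.92 and -1.05 against -0.78 to -0.75 in the control arrays. By the 5' to 3' ratio, persimmon peel arrays 3 and 4 were the lowest, at -2.29 and -1.91, and array 1 was the highest of that diet, at -1.82. Only 1 probe set represents Rdh16, so a lower level of the whole transcript and a weaker signal of the part it probes cannot be told apart.

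**Figure D2:**
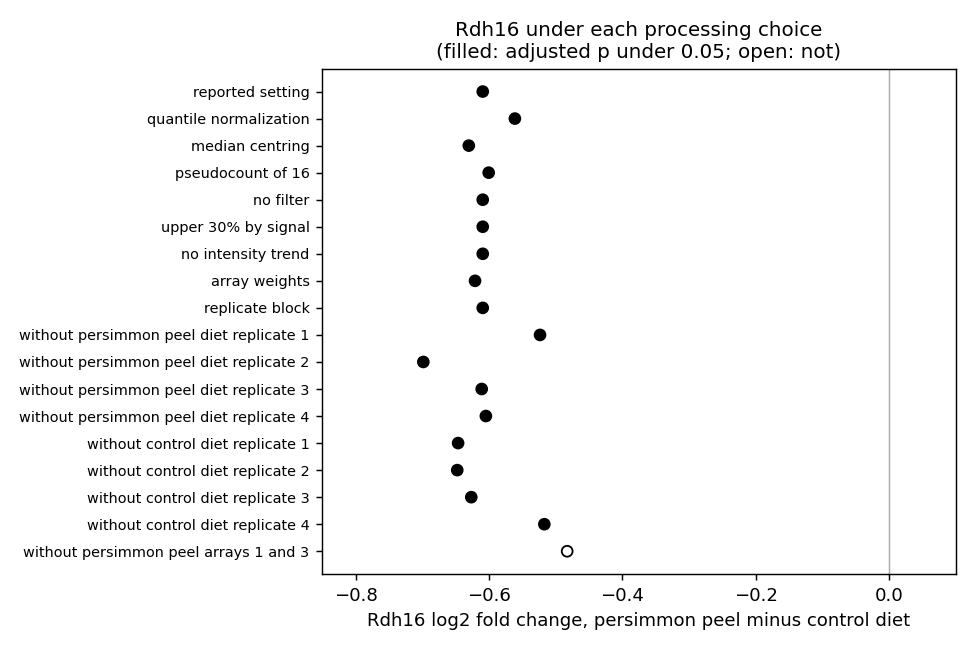
Log2 fold change of Rdh16, persimmon peel minus control diet, under the reported setting (top) and 17 others; filled points have an adjusted p under 0.05 and the open point does not. All values lie between -0.70 and -0.48, and the open point is the fit without persimmon peel arrays 1 and 3.

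Rdh7, a gene of the same dehydrogenase family that lies near Rdh16 in the RefSeq annotation, did not pass. Its set gave 7197, 6594, 7942 and 7210 units on the persimmon peel diet, against 7200, 7549, 7588 and 7465 units on the control diet, a difference of -0.05 (SE 0.06, adjusted p = 0.74). The diets overlapped. A pseudogene, Rdh16-ps1, and Rdh9 also neighbour Rdh16, and whether their transcripts bind the Rdh16 probes was not analysed here. Over the 8 arrays the standardised profile of Rdh16 was most like those of Vps35, a subunit of the retromer that recycles endosomal cargo, with a root mean square difference of 0.112 SD, Erlec1, a lectin of the endoplasmic reticulum (0.117 SD), and Taf9, a subunit of general transcription complexes (0.122 SD). They were picked as the closest of all named tested genes, so some close profiles were bound to be found, and shared regulation was not tested. Vps35 and Erlec1 were called lower (adjusted p = 0.0291 and 0.0118), and Taf9 was not called (adjusted p = 0.126).

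Dhrs3 (1373240_at) had 1385, 1325, 1768 and 1461 units on the persimmon peel diet, against 1239, 1468, 1315 and 1548 units on the control diet. Persimmon peel array 3 was above every control array and the other 3 lay among them. The difference was 0.09 (SE 0.10, 95% interval -0.13 to 0.31, adjusted p = 0.675).

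Storage was represented by Lrat (1368570_at), the acyltransferase that esterifies retinol and is found in the liver chiefly in stellate cells. Its signals were 115, 137, 154 and 151 units on the persimmon peel diet, against 166, 149, 155 and 216 units on the control diet. Persimmon peel arrays 1 and 2 lay below every control array, and control array 4 stood above all others. The log2 fold change was -0.30 (SE 0.14, 95% interval -0.60 to 0.01, adjusted p = 0.268), and Lrat had the smallest p of the members after Rdh16. Of 16 stellate cell markers 15 had a probe set, and their summed signal was 1946 to 2745 units on the persimmon peel diet and 1869 to 2557 units on the control diet. Most of that sum came from Ecm1 and Col3a1. Their means were 883 and 545 units on the persimmon peel diet, against 693 and 600 units on the control diet. Of these markers 10 were tested and 0 passed in limma, with 0 lower and 1 higher at an unadjusted p under 0.05. The counts for all 9174 named genes tested were 1487 lower and 725 higher. The sets of Dcn, Des, Gfap, Lum and Ngfr were among the dimmest 50% of probe sets and were not tested.

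Export was represented by Rbp4, the protein that carries retinol from hepatocytes into the blood. Its set 1371762_at gave 9256, 8816, 9545 and 9524 units on the persimmon peel diet, against 9556, 9911, 9489 and 9903 units on the control diet. The diets overlapped, with 2 persimmon peel arrays below every control array. The difference was -0.07 (SE 0.05, 95% interval -0.18 to 0.05, adjusted p = 0.532), the narrowest interval of the members. Rbp4 was brighter than 99.9% of the probe sets on the array and varied little, since its residual SD was at or above that of 2.60% of the 1000 sets nearest in signal. Its sign depended on scaling, since the difference was 0.01 after quantile normalization (adjusted p = 0.82).

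Synthesis of retinoic acid was represented by Aldh1a1 (1387022_at), an aldehyde dehydrogenase that oxidises retinal. Its signals were 1646, 1420, 2815 and 2328 units on the persimmon peel diet, against 1835, 1863, 1597 and 2580 units on the control diet. The persimmon peel arrays held both the lowest and the highest value, and the highest was 1.98 times the lowest. The difference was 0.03 (SE 0.18, 95% interval -0.36 to 0.43, adjusted p = 0.949), and its sign changed when single arrays were left out. The residual SD of 0.38 on the log2 scale was at or above that of 97.8% of the 1000 sets nearest in signal, so that Aldh1a1, like Bco1, varied more between rats of a diet than most sets.

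**Figure D3:**
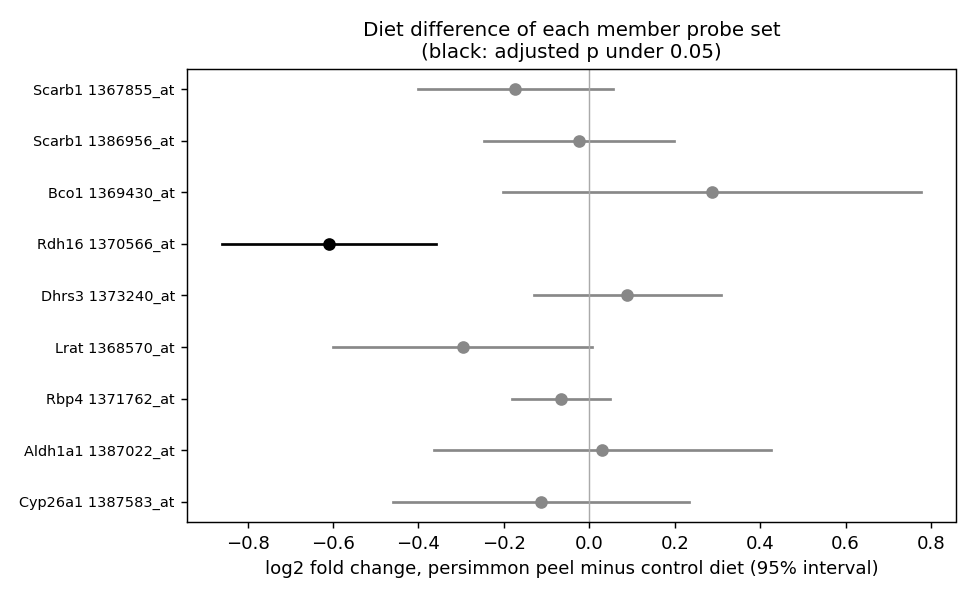
Log2 fold change of each member probe set, persimmon peel minus control diet, with its 95% interval from limma, unadjusted for the number of sets; black marks an adjusted p under 0.05. Rdh16 is the only black point, at -0.61, and the intervals of the other 8 sets include 0.

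Breakdown of retinoic acid was represented by Cyp26a1, a cytochrome P450 whose gene is induced by retinoic acid. Its promoter is printed because it holds a repeat of the kind that retinoic acid receptors are known to bind, together with the promoter of Rarb, a retinoic acid receptor whose gene retinoic acid also induces. Both come from RefSeq on the rat build GRCr8 and run from 250 bases before to 50 bases after the annotated start, Cyp26a1 at chr1:244883572-244883871 and Rarb at chr15:11336142-11336441, both on the plus strand. Capitals mark a stretch of 17 bases that holds 2 half-sites in the same direction with 5 bases between them.
Cyp26a1: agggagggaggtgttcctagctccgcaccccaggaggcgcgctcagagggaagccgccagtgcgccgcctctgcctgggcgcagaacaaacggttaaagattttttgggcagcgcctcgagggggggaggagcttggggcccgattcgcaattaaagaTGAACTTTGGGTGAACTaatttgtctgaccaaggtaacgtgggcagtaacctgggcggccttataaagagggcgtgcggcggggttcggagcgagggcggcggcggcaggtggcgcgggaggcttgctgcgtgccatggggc
Rarb: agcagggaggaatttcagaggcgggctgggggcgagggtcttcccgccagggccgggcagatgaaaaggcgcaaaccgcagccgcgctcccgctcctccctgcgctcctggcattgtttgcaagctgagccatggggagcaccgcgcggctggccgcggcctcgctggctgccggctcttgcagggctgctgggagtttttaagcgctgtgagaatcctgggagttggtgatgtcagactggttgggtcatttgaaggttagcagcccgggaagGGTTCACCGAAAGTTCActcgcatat
The half-sites searched on both strands were AGGTCA, the variant AGTTCA, the variant GGGTCA and the variant GGTTCA, the letters that receptors of this family are known to bind, as direct repeats spaced by 1, 2 or 5 bases. In Cyp26a1 the match lies at -92 to -76 from the start and reads on the opposite strand as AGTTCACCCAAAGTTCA. Of 33469 promoter entries of the same length in the RefSeq table, 0.382% held such a repeat with a spacing of 5 bases, 0.233% with 1 base and 0.170% with 2 bases. Promoters of 7 member genes were in the table, those of Bco1, Bco2, Dhrs3, Lrat, Rbp4, Aldh1a1 and Cyp26a1, and Cyp26a1 alone held a match. A match in letters is a description and was not tested for binding.

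Cyp26a1 (1387583_at), with this element in its promoter, had 52.0, 52.4, 56.1 and 49.4 units on the persimmon peel diet, against 65.5, 49.1, 63.9 and 50.2 units on the control diet. All 4 persimmon peel arrays lay within the control range. The log2 fold change was -0.11 (SE 0.16, 95% interval -0.46 to 0.23, adjusted p = 0.746). The upper end of the interval is a signal 1.18 times that of the control diet. The set was the dimmest of the members, brighter than 58.1% of the probe sets on the array, and the lowest mean signal tested was 34.4 units. Rarb gave 224, 261, 157 and 192 units on the persimmon peel diet, against 301, 261, 211 and 294 units on the control diet, a difference of -0.37 that did not pass (SE 0.16, adjusted p = 0.208).

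The other retinoid receptors did not pass either. Rara, the retinoic acid receptor alpha, gave 147, 109, 186 and 117 units on the persimmon peel diet, against 78.3, 65.2, 108 and 110 units on the control diet. Its difference was 0.63 (SE 0.20, adjusted p = 0.0826), and it passed as higher in 2 of 16 other settings, with the replicate block (adjusted p = 0.0362) and without persimmon peel replicate 2 (0.0388). Rxra, the retinoid X receptor alpha that pairs with these receptors, gave 156, 151, 166 and 105 units on the persimmon peel diet, against 179, 165, 189 and 237 units on the control diet, a difference of -0.42 (SE 0.16, adjusted p = 0.141). Only 1 persimmon peel array of Rxra, array 3, reached the lowest control array. Rarg differed by 0.18, Rxrb by 0.15 and Rxrg by -0.08, with adjusted p of 0.729, 0.784 and 0.732.

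A wider list of 68 further symbols of retinoid and carotenoid handling leaves out the tested members, so Rdh16 is not counted in it. Of the listed genes 44 were tested, of which 2 had a set called lower and 0 had a set called higher. At an unadjusted p under 0.05 in limma, 9 of the 44 genes had a lower and 3 a higher set. Among all 9174 named genes tested, 1487 had a lower and 725 a higher set at that threshold. The share with a lower call was 4.55%, against 5.89% of all 9174 named genes tested. The median log2 fold change over the brightest set of the 44 genes was -0.06, against 0.01 over all named genes. Both called genes belong to lipid transport. Cd36, a scavenger receptor for fatty acids and carotenoids, gave 27.8, 31.1, 48.4 and 36.4 units on the persimmon peel diet, against 62.8, 66.3, 73.5 and 60.1 units on the control diet, without overlap (log2 fold change -0.90, SE 0.19, adjusted p = 0.0156). This set was dim, brighter than 55.9% of the probe sets on the array. Its mean on the persimmon peel diet was 35.9 units, near the lowest mean signal tested, 34.4 units. With a pseudocount of 16 the log2 fold change of Cd36 was -0.67 (limma, adjusted p = 0.0134). Abca1, the transporter that loads lipid onto nascent high-density lipoprotein, had 4 tested sets, and 1 was lower, at 91.3, 122, 108 and 98.0 units on the persimmon peel diet, against 150, 149, 144 and 172 units on the control diet (-0.56, SE 0.13, adjusted p = 0.0211). The 3 brighter sets of Abca1 gave -0.20, -0.42 and -0.05 and did not pass. Cd36 passed in 13 of 16 other settings and did not pass without persimmon peel replicate 1 (adjusted p = 0.0551), control replicate 3 (0.052) or persimmon peel arrays 1 and 3 (0.058). The called set of Abca1 passed in 12 of 17 and did not pass without persimmon peel replicate 1 (adjusted p = 0.0774) or 4 (0.0573), control replicate 1 (0.0519) or 4 (0.0838), or persimmon peel arrays 1 and 3 (0.148).

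The retinol and retinal oxidoreductases of that list do not include Rdh16 and Dhrs3, which are members. Among those listed, 9 genes were tested and 0 passed in limma, with 3 lower and 1 higher at an unadjusted p under 0.05. The counts for all 9174 named genes tested were 1487 lower and 725 higher. The brightest set was negative in 7 of the 9 oxidoreductases, which is 77.8%, against 47.4% of all named genes. This was the highest share among the groups by role in the wider list. The other groups ran from 33.3% to 66.7%, and the whole list was at 54.5%. The median log2 fold change of the oxidoreductases was -0.23, the lowest of the groups, which are small. Rdh14 gave 301, 426, 375 and 434 units on the persimmon peel diet, against 644, 517, 414 and 697 units on the control diet, a difference of -0.55 (SE 0.16, adjusted p = 0.0594). It passed in 4 of 17 other settings, among them the fits without persimmon peel replicate 2 (adjusted p = 0.0408) and without control replicate 3 (0.0235). Rdh13 gave -0.47 (adjusted p = 0.11), Rdh10 -0.28 (adjusted p = 0.181), Rdh11 -0.23 (adjusted p = 0.288) and Rdh5 0.35 (adjusted p = 0.254). The values of Rdh7, Rdh10, Rdh11, Rdh13, Rdh14 and Rdh5 are given for comparison with Rdh16 and were picked after they were seen.

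**Figure D4:**
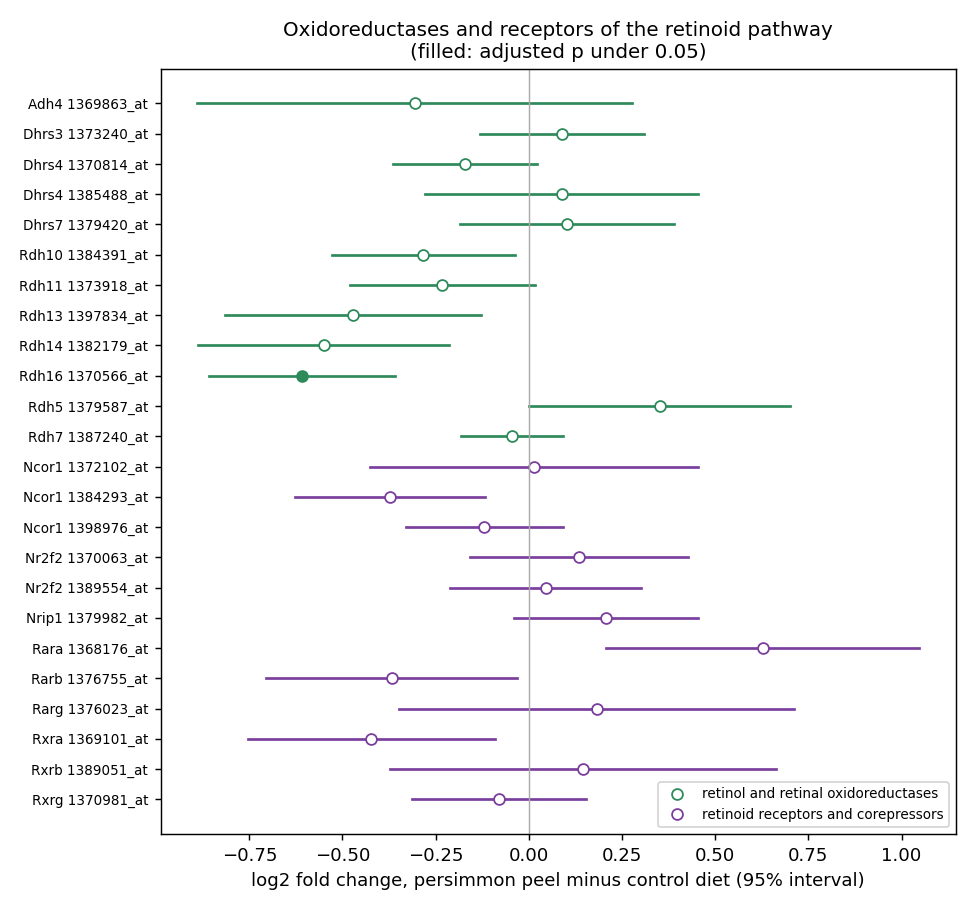
Log2 fold change, persimmon peel minus control diet, with its unadjusted 95% interval from limma, for each tested probe set of the retinol and retinal oxidoreductases (green, with Rdh16 and Dhrs3) and of the retinoid receptors and corepressors (purple); filled points have an adjusted p under 0.05. Rdh16, at -0.61, is the only filled point, while Rara at 0.63 and Rdh14 at -0.55 are open.

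The members also varied from rat to rat within each diet, and some did so together. Over the 8 arrays, the log2 signals of Aldh1a1 and of the brighter set of Scarb1 correlated with Pearson's r = 0.922 (exact permutation p = 0.00154, adjusted over 28 pairs of genes 0.0431) and Spearman's rho = 0.81 (exact permutation p = 0.0218, adjusted 0.122). The r was 0.787 without the 2 arrays farthest from the median of Scarb1, and 0.934 for the deviations from the diet means. Persimmon peel array 3 and control array 4, the highest for both genes, also had the highest median signals over all probe sets, 39.2 and 37.4 units. After quantile normalization r was 0.717. The dimmer set of Scarb1 gave r = 0.376 to Aldh1a1 (exact permutation p = 0.33) and rho = 0.381 (exact permutation p = 0.36), and the difference between the sets was not tested. An r at least as far from 0 with Aldh1a1 was found in 0.619% of the other tested sets. Dhrs3 and Aldh1a1 gave r = 0.826 (exact permutation p = 0.00942, adjusted 0.0983) and rho = 0.81 (exact permutation p = 0.0218, adjusted 0.122), with r of 0.916 without the 2 arrays farthest from the median of Dhrs3, 0.852 for the deviations from the diet means and 0.603 after quantile normalization. Bco1 ran the other way, with r = -0.81 to the brighter Scarb1 set (exact permutation p = 0.0176, adjusted 0.0983; rho = -0.81, exact permutation p = 0.0218, adjusted 0.122). Without the 2 arrays farthest from the median of Scarb1 that r was -0.893, and it was -0.657 after quantile normalization. Rdh16 and Lrat gave r = 0.821 (exact permutation p = 0.011, adjusted 0.0983) and rho = 0.786 (exact permutation p = 0.0279, adjusted 0.13), with r of 0.731 for the deviations from the diet means and 0.81 after quantile normalization. Without the 2 arrays farthest from the median of Rdh16, persimmon peel array 1 and control array 4, that r was 0.264. The r over all arrays thus leans on those 2, though leaving out extremes also narrows the range of Rdh16.

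**Figure D5:**
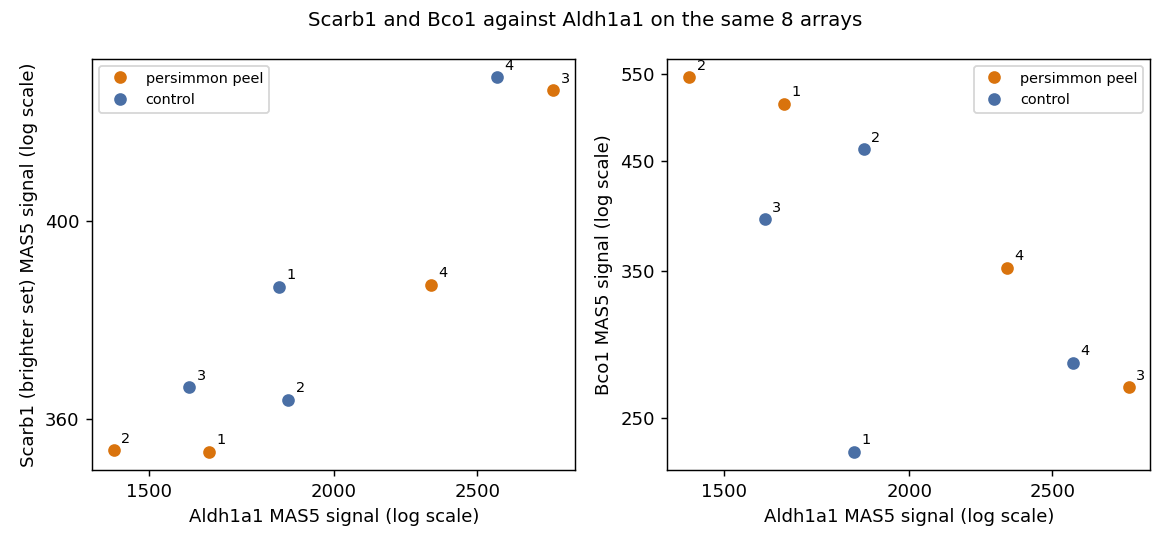
Signal of the brighter Scarb1 set (left) and of Bco1 (right) against that of Aldh1a1 on the same 8 arrays, both axes on a log scale; orange points are the persimmon peel diet and blue points the control diet, numbered by replicate. Persimmon peel array 3 and control array 4 are highest for Aldh1a1 and Scarb1 and among the lowest for Bco1, at 268 and 284 units.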

How the data were processed

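The deposited values are intensity values, 1 linear signal per probe set and array for 31099 probe sets. Per the submitters' processing notes they were made with MAS5, without a version. Neither a scaling target nor detection calls are given in the sources used here. Per the labels, total RNA was labelled as biotinylated cRNA. Symbols came from the platform annotation, updated by gene number through RefSeq (GRCr8), and 20826 of 31042 non-control sets had 1 symbol.

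Signals were turned to log2 with no pseudocount or further normalization, and the dimmest 50% of sets by mean log2 value were left out. The diets were compared with limma 3.58.1 in R 4.3.3 (lmFit, eBayes with an intensity trend, two-sided). Every adjusted p of a probe set comes from this fit, SE is its moderated standard error, and intervals are its 95% intervals. Depth does not apply to arrays, and 4 per diet limit the precision. The labels number 4 livers per diet, and each array was treated as 1 animal.

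In simulated data for this comparison over 15521 sets, noise was independent between sets and 50 sets per fold size were changed in random directions. The fit recovered 2 of 50 sets with a 1.25-fold change, 26 of 50 with a 1.5-fold change and 42 of 50 with a 2-fold change. It made 2 false calls. In the deposited data 769 sets were called, mostly lower, so the simulated shares need not hold there. The members and gene lists were chosen with earlier results of these data known. The genes named are the members, the listed genes with a called set, the receptors, and the 3 genes most like the called member in root mean square difference of standardised profiles. Rdh5, Rdh7, Rdh10, Rdh11, Rdh13, Rdh14, Gstp1, Cps1, Ecm1 and Col3a1 were named outside that rule, after their values were seen. The pairs of members were examined after their values were seen. Other settings tried were median centring and quantile normalization, a pseudocount of 16, testing all sets or the upper 30% by signal, array weights, no trend, replicates as a block, leaving out single arrays, and leaving out persimmon peel arrays 1 and 3 together.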

Additional observations from a re-analysis of the deposited data

Results flagged for a closer look

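Each of the 9 probe sets was checked in both diets for an array far from the other 3, which made 18 checks, and 2 arrays stood apart. In 1367855_at of Scarb1, persimmon peel array 3 had 291 units while the other 3 persimmon peel arrays had 240 to 243 units. In Rdh16, control array 4 had 1644 units while the other 3 control arrays had 1252 to 1309 units. Chance alone gives such a gap in about 1 of 20 groups. Without control array 4 the log2 fold change of Rdh16 was -0.52 (limma, adjusted p = 0.0366).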

How the results depend on the processing

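Rdh16 kept its direction in all 17 other settings, from -0.70 to -0.48 on the log2 scale, and its call in 16. Without persimmon peel arrays 1 and 3, 0 member sets, 0 genes of the wider list, and 75 lower and 1 higher of all sets were called, where fewer arrays were compared. With each array left out, the lower member sets numbered 1 to 1, the lower genes of the wider list 0 to 3 and the higher 0 to 1, and all sets called 295 to 942 lower and 12 to 267 higher. The list had 0 lower genes without persimmon peel replicate 1. Over all sets, 703 lower and 66 higher sets were called as reported. Quantile normalization gave 271 higher sets and 1 higher listed gene, Gstp1, chosen after its value was seen, with 68.8% of calls lower against 91.4%. No filter gave 441 lower and 26 higher sets, and no intensity trend gave 33 higher sets. The upper 30% by signal gave 41 higher sets and 1 lower listed gene, Abca1. Cd36, brighter than 55.9% of the probe sets, fell below that cut and was not tested there. The cause of the other shifts was not tested.

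Members that did not pass changed sign in some fits. Scarb1 (1386956_at) was 0.014 and Rbp4 0.0142 after quantile normalization, and Aldh1a1 was -0.0083 with array weights and -0.0913 without persimmon peel arrays 1 and 3. With each array left out, Scarb1 (1386956_at) ran from -0.0827 to 0.0297, Aldh1a1 from -0.14 to 0.19, and the GAPDH middle to 3' ratio difference from -0.0271 to 0.0112. The replicate numbers share only a number, since deviations of same-numbered arrays correlated at -0.0846 to 0.0539 and 1 of 4 persimmon peel arrays matched its own number best. With the replicate block Rdh16 was -0.61 (adjusted p = 0.00664), 596 sets were lower and 60 higher, and 1 listed gene, Rara, was higher.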
